A study of Mus musculus with 29 samples.

Results

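The cytochrome P450 genes of families 1 to 4, the UDP-glucuronosyltransferase genes (Ugt) and the cytosolic sulfotransferase genes (Sult) were followed through mouse urothelium that expresses an activated form of Pparg and through bladder tumors induced by the carcinogen BBN. Members were taken by symbol and by level. Of 122 matching symbols among the 35199 genes of a table, 47 were kept, those that reached 10 normalized counts in 3 or more libraries of any 1 of the 5 tables used. They were 2 Cyp1, 14 Cyp2, 2 Cyp3, 10 Cyp4, 12 Ugt and 7 Sult genes. Cyp2j13 lay just inside that limit, with a third-highest value of 13 normalized counts, and Sult2a7 just outside it at 8.80. Of the 75 symbols left out, 35 stayed under 1 normalized count in every library, and the third-highest value of the hepatic P450 genes Cyp1a2, Cyp2c29 and Cyp3a11 was 0, 0.884 and 0.960.

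P450 enzymes insert oxygen into lipophilic substrates, among them drugs, carcinogens, retinoids, fatty acids and steroids. Glucuronosyltransferases and sulfotransferases then couple a sugar acid or a sulfate to the product, which makes it soluble and ready for export. The urothelium, which lines the bladder and is in contact with excreted metabolites, is known to express members of all of these families. BBN, the nitrosamine used here to induce tumors, is itself a substrate of oxidation and conjugation.

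The sorted cells were urothelial cells carrying Gfp, which the paper describes as basal cells. They were collected 4 days after tamoxifen from adult mice that received no carcinogen. The 4 control libraries are labelled wild type and the 5 mutant libraries K5VP16;Pparg+/-. In the mutants a Cre under the Krt5 promoter opens a Rosa26 cassette from which a CAG promoter drives the VP16;Pparg fusion with EGFP, so that the transgene marks basal cells and their progeny and is not under the control of the Pparg locus. The tumor libraries were laser-captured from mice given 0.05% BBN in drinking water, for 5 months by the labels. By their titles these libraries are of 4 months, which in the paper is the time after tamoxifen induction. They were 3 basal tumors of mice labelled wild type and, from K5VP16;Pparg+/- mice, 3 luminal tumors and 3 mixed-lesion domains each of luminal and basal-like kind. All tumor groups shared the BBN treatment, so no comparison among them is a comparison with untreated tissue. Neither the labels nor the columns tie a captured region to an animal. Where regions of the same group share one, p-values over regions are too small. Where regions of the 2 groups compared share one, a fit without pairs can make p-values too large. Libraries are named here by group and a letter.

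The values are counts that were normalized within each table, summing to between 36520193 and 41435665 in the 9 sorted libraries and between 41697178 and 53252995 in the 8 libraries of the table of basal against luminal tumors. Reads behind a value are not known, and p-values measure only the spread between these libraries. Pparg itself, whose table value does not separate transgene and endogenous gene, was at 9617, 9999, 9821 and 9381 normalized counts in the sorted controls and at 6646, 9032, 6111, 7863 and 8458 in the mutants (log2 fold change -0.36, adjusted p = 0.126 by limma). Every mutant lay below every control, so this value does not show the transgene. Fabp4, a target of Pparg, was at 206.5 to 466.9 normalized counts in controls and at 4969 to 30598 in mutants at 4 days. Each luminal and basal urothelial marker was above 1 normalized count in at least 1 library of every sorted and tumor group. Because many members are known from the liver, hepatocyte markers were examined as well. The 7 markers summed to 50.11 to 74.06 in sorted controls and 245.2 to 628.6 in sorted mutants, without overlap, and to 0 to 62 in basal and 29.37 to 198.5 in luminal tumors, which overlapped. Under 1 normalized count in all libraries of a group were 3 of the 7 in sorted controls (Alb, Serpina1a and Fgb), 2 in sorted mutants (Serpina1a and Fgb), 5 in basal tumors (Alb, Ttr, Serpina1a, Fgb and Tat) and 4 in luminal tumors (Alb, Serpina1a, Fgb and Tat). The mean log2 level of 4 Y-linked genes was 11.05 to 11.11 in controls B, C and D, 5.59 in control A and 5.16 to 5.91 in the 5 mutants, and 9.73 to 10.79 in the 8 tumor libraries. Such a score follows the sex of the mice. Controls B, C and D differ from every mutant in it, so at 4 days score and group are told apart through control A alone. Beyond fits with this score as a covariate and a fit of control A against the mutants, the part of sex was not tested. Control A is therefore the sorted control that matches the mutants in this score, and its values are given first wherever 4 control values are listed.

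In sorted control cells glucuronidation genes stood highest among the members when normalized counts were expressed per kb of the longest coding transcript. Ugt1a6a and Ugt1a6b, which conjugate small planar phenols, reached 23800 ± 3370 and 19700 ± 1690 per kb (SD, n = 4), and their ranges overlapped. Ugt1a7c followed at 3730 ± 340 per kb (SD, n = 4), below both, and only Cyp2f2 in control D was higher among the other members. Cyp4f15, a fatty acid hydroxylase, stood at 1820 ± 295 per kb, Cyp2s1, an extrahepatic retinoid oxidase, at 1800 ± 490 per kb and Ugt2b34 at 1650 ± 498 per kb (SD, n = 4 each), and these 3 did not differ beyond their spread. Cyp2f2, best known from airway secretory cells, averaged 1760 per kb with an SD of 2920. Its normalized counts were 776.8, 268.3, 654.5 and 11470 in the controls and 77.04, 271.5, 424.4, 19980 and 1612 in the mutants. A single library of each group, control D and mutant D, held most of the Cyp2f2 signal. Among sulfotransferases Sult1a1, the phenol sulfotransferase, stood at 58.3 ± 64.5 per kb and Sult2b1 at 29.7 ± 8.81 per kb (SD, n = 4 each), with overlap, and the mean of Sult1a1 rested on control D at 153 per kb. Both were below all of the glucuronosyltransferases named above in every control.

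The 8 Ugt1a members need a caution that bears on all of their values. They are one locus on chromosome 1 (RefSeq gene models, GRCm38.p6, from start 88055411 to end 88220002), in which each gene has its own leading exon and all join the same following exons. In GENCODE M21 transcripts the last 737 coding bases were identical in all 8. Between 53.0% and 84.2% of the distinct stretches of 31 bases in a Ugt1a member also occurred in another gene, against at most 40.8% in the other 39 members. The leading coding exons of Ugt1a6a and Ugt1a6b (chr1:88138474-88139331 and chr1:88106942-88107799) are 97.0% identical, with 26 differences over 858 bases. The stretch of 60 bases where they differ most, coding bases 296 to 355, holds 9 of these differences, shown in capitals because reads over such positions are what separates the pair:
Ugt1a6a: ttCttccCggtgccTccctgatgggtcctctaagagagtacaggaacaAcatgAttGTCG
Ugt1a6b: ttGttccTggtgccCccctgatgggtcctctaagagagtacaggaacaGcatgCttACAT
The same coding positions of Ugt1a7c and Ugt1a1 are printed for contrast:
Ugt1a7c: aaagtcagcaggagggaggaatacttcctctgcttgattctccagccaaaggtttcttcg
Ugt1a1: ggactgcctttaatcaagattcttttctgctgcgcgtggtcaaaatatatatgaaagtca
This identical end of 737 coding bases, whose first bases still lie in the leading exon, begins with the following sequence in all 8 genes, so that reads from it name the locus and not the gene:
shared Ugt1a coding end: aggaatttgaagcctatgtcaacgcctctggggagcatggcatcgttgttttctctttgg
How kallisto divided such reads among the Ugt1a genes was not tested, and the sum over the locus is given beside the single genes.

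**Figure D1:**
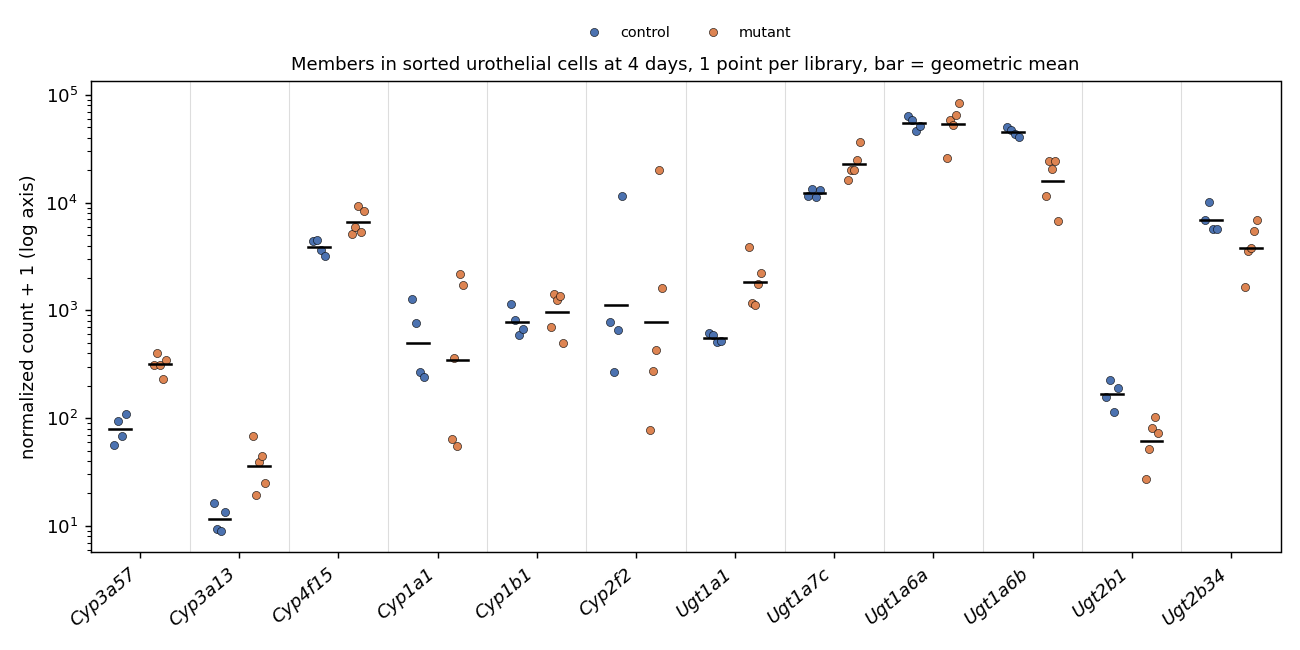
Normalized counts plus 1 (log axis) of 12 members in each sorted library at 4 days, with 4 control and 5 mutant points per gene and a bar at the geometric mean. Cyp3a57, Cyp3a13, Cyp4f15, Ugt1a1 and Ugt1a7c lie higher in every mutant than in every control, Ugt1a6b and Ugt2b1 lower, and Cyp1a1 and Cyp2f2 spread widely in both groups.

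In sorted cells that express VP16;Pparg, Cyp3a57 and Ugt1a1 were higher at 4 days, and no other member passed the test. Cyp3a57 belongs to the subfamily of broad-range steroid and drug oxidases, and Ugt1a1 is the enzyme that conjugates bilirubin. Of 42 members tested 2 had an adjusted p under 0.05 (limma, Benjamini-Hochberg over 16413 genes), which is close to the 2.85% of all genes called. The median log2 fold change of the tested members was -0.05 and that of all genes 0. The 5 members not tested for low values were Cyp2b10, Cyp2c65, Cyp4b1, Cyp4f18 and Sult1c2. Basal urothelial markers summed to 128400 to 149500 in controls and to 89830 to 128000 in mutants, without overlap. The sum of the hepatocyte markers, given above, did not overlap either and was higher in mutants, as Cyp3a57 and Ugt1a1 were. Luminal urothelial markers summed to 201300 to 381200 in controls and to 252100 to 493800 in mutants, with overlap. These sums were above the basal ones in both groups, so the sorted libraries do not show basal transcripts alone. The part of these marker lists in the changes at 4 days was not tested. In bulk libraries fewer cells of a type and less RNA per cell cannot be told apart.

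Cyp3a57 was at 55.36, 92.61, 67.88 and 108.8 normalized counts in controls and at 313, 404, 313.2, 230 and 346 in mutants. Every mutant lay above every control, and control A, which shares the mutants' Y-linked score, was the lowest of all 9 libraries. The log2 fold change was 2 (SE 0.25, adjusted p = 0.00509 by limma), and the call held without each library in turn. With the Y-linked score as a covariate it was 2.49 with an adjusted p of 0.0752. By sequence 17.6% of the 31-base stretches of Cyp3a57 also occur in Cyp3a59. The 250 bases before the start site in the RefSeq promoter entry of Cyp3a57 (chr5:145345019-145345268, GRCm38.p6, plus strand) are shown because they hold a match, in capitals, to a direct repeat of AGGTCA with 1 base between, the kind of element that Pparg and its partner Rxr bind:
Cyp3a57: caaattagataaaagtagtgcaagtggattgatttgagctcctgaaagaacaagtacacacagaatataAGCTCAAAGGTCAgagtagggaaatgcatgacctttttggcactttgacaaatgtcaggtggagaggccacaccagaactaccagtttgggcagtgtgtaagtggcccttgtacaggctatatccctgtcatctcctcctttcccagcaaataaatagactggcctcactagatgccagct
The search allowed 2 mismatches on either strand, and 3.24% of 32851 promoter windows of this length held such a match. Among the 39 members with a promoter sequence 3 held it, namely Cyp3a57, Cyp4f16 and Cyp2t4.

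Cyp3a13, the other Cyp3a member and an extrahepatic one, was low, with 15.24, 8.296, 8.022 and 12.57 in controls and 67.95, 18.49, 37.93, 43.8 and 24.05 in mutants. The groups did not overlap, but its log2 fold change of 1.62 (SE 0.42) had an adjusted p of 0.0683 by limma. Among Cyp4 fatty acid hydroxylases Cyp4f15 was at 4406, 4544, 3618 and 3205 in controls and at 5119, 5978, 9292, 5306 and 8334 in mutants. Here too the groups did not overlap, with a log2 fold change of 0.76 (SE 0.20, adjusted p = 0.0703 by limma). Cyp4f16 differed less, with 1078 to 1276 in controls and 1303 to 1573 in mutants (log2 fold change 0.29, adjusted p = 0.14). Cyp4f13 and Cyp4f39 overlapped between groups, with log2 fold changes of -0.05 and 0.26.

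Ugt1a1 was at 612.8, 593, 507 and 517.3 normalized counts in controls and at 3909, 1174, 1121, 1741 and 2208 in mutants. The controls lay within a narrow band, the mutants all lay above it, and mutant A was the highest. The log2 fold change was 1.71 (SE 0.33, adjusted p = 0.0269 by limma). Leaving out control A, B, C or D or mutant E ended the call, with adjusted p from 0.0504 to 0.0902. It was also lost without a variance trend (adjusted p = 0.0523), in the smaller table of 3 against 3 libraries (0.0741) and with the Y-linked score as a covariate (log2 fold change 1.68, adjusted p = 0.389), while the direction was kept throughout. The 250 bases before the start of Ugt1a1 (chr1:88211709-88211958, plus strand) are printed because this is the one Ugt promoter whose gene was called at 4 days, and none of the 3 motifs searched has its letters there:
Ugt1a1: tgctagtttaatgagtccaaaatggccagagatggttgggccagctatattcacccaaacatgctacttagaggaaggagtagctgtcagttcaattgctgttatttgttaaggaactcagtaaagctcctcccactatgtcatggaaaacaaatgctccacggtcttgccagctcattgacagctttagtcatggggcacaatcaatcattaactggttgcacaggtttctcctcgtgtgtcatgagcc

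The more abundant Ugt1a members differed in opposite directions without passing the test. Ugt1a6b was at 49820, 47240, 43770 and 40960 in controls and at 11610, 24450, 20640, 24190 and 6768 in mutants. Every mutant was below every control (log2 fold change -1.53, SE 0.35, adjusted p = 0.0514 by limma). Ugt1a7c was at 11440, 13440, 11260 and 13120 in controls and at 16300, 20270, 20080, 24980 and 36200 in mutants, all above the controls (0.89, SE 0.20, adjusted p = 0.0502). Ugt1a6a was at 63580, 58090, 45940 and 51110 in controls and at 25950, 58790, 52770, 65510 and 84600 in mutants, which overlapped (-0.02, SE 0.30). When a library was left out the adjusted p of Ugt1a6b ran from 0.0347 to 0.134, under 0.05 in 3 of 9 fits, and that of Ugt1a7c from 0.036 to 0.144, under 0.05 in 2 of 9 (limma). In the 12 other settings that of Ugt1a6b ran from 0.0319 to 0.709, under 0.05 in 5, and that of Ugt1a7c from 0.0156 to 0.692, under 0.05 in 3.

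Summed over the 8 genes the locus was at 102335 to 126559 in controls and at 58029 to 130579 in mutants, so the groups overlapped and the makeup of the sum differed more than the sum. Ugt1a6b made up 38.5% to 42.8% of it in controls and 5.18% to 23.2% in mutants. Ugt1a1 made up 0.484% to 0.495% in controls and 1.12% to 6.74% in mutants. These shares are given without a test, since they are formed over the members. The less abundant Ugt1a genes gave log2 fold changes of -1.22 for Ugt1a10, -1.19 for Ugt1a5, -1.11 for Ugt1a8 and -0.16 (SE 0.49) for Ugt1a2, all overlapping between groups, and none was called.

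**Figure D2:**
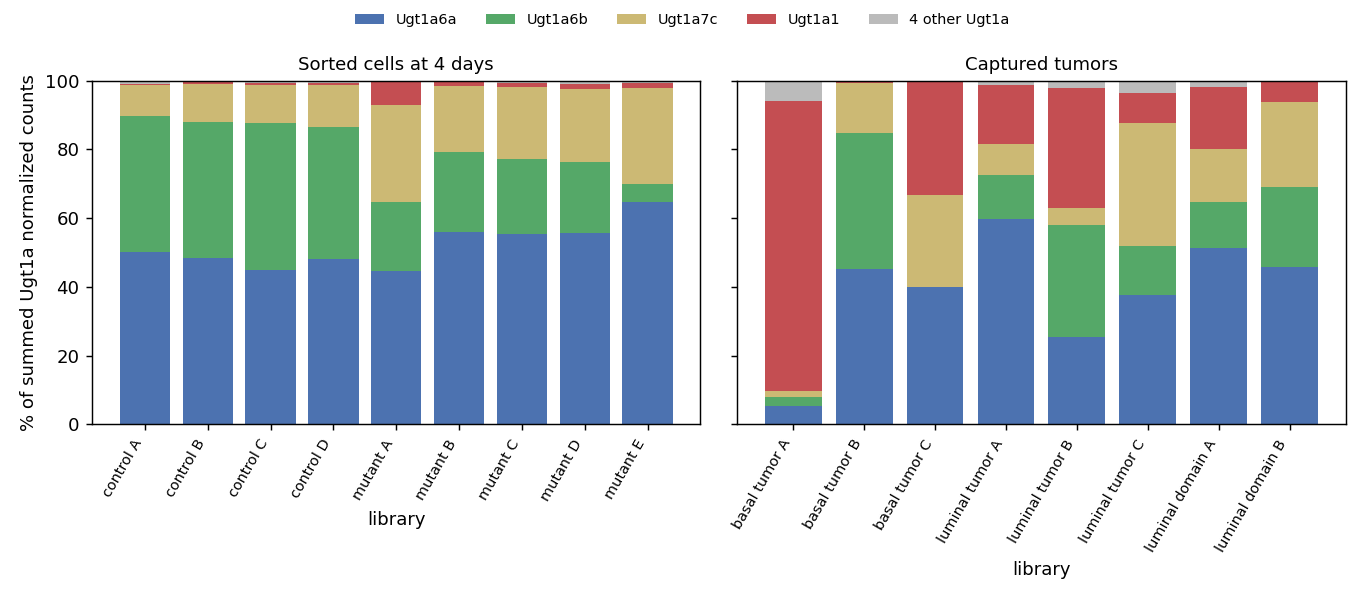
Share of each Ugt1a gene in the summed normalized counts of the 8 Ugt1a members, 1 stacked bar per library, for sorted cells at 4 days (left) and captured tumors (right). Ugt1a6b takes 38.5% to 42.8% in the controls and at most 23.2% in the mutants. Ugt1a1 takes 8.81% to 35.1% in the luminal tumors and 0.179% to 84.3% in the basal tumors, so these overlap.

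None of the 3 Ugt2b genes tested, steroid and xenobiotic conjugating enzymes encoded as a cluster on chromosome 5, was called at 4 days, and each had a negative log2 fold change. Ugt2b34 was at 6905, 10230, 5721 and 5651 in controls and at 1636, 3523, 3780, 5417 and 6862 in mutants, with overlap through mutant E (log2 fold change -0.86, SE 0.37, adjusted p = 0.224 by limma). Ugt2b1 was at 156.1, 227.2, 112.9 and 188.4 in controls and at 26.42, 50.76, 80.15, 101 and 72.47 in mutants, without overlap (-1.44, SE 0.39, adjusted p = 0.0796). Ugt2b35 gave -1.49 (SE 0.49, adjusted p = 0.124). Of 12 Ugt members 10 had a negative log2 fold change and 2, Ugt1a1 and Ugt1a7c, a positive one, and the family median was -0.99.

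Counting all 42 tested members, 6 did not overlap in the higher direction and 2 in the lower, beside 4.67% and 4.51% of all genes. The classical Ahr-induced genes Cyp1a1 and Cyp1b1, which activate polycyclic carcinogens, were not among them. Cyp1a1 was at 1267, 769.8, 264.3 and 239 in controls and at 63.66, 358.2, 54, 2191 and 1732 in mutants (log2 fold change -0.54, SE 1.16), and both groups spread widely. Cyp1b1 was at 584.4 to 1138 in controls and 501.9 to 1412 in mutants (0.31, SE 0.33). Cyp4b1, known to activate aromatic amines, reached at most 13.12 normalized counts in the 9 libraries and was not tested. Cyp2s1 (-0.19, SE 0.22), Cyp2j6, an arachidonate epoxygenase (0.36, SE 0.13, adjusted p = 0.145), and Cyp2r1, a vitamin D hydroxylase (0.63, SE 0.29, adjusted p = 0.255), overlapped between groups. The 15 tested members given no value of their own had log2 fold changes from -0.59 to 2.06 and adjusted p of at least 0.166.

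Sulfotransferases were low at 4 days and none of the 6 tested was called. Sult1a1 was at 11.93, 39.6, 58.67 and 209.3 in controls and at 153.7, 14.5, 160.5, 61.78 and 50.68 in mutants. Sult5a1 was at 43.46 to 188 in controls and 106.5 to 643.1 in mutants (log2 fold change 1.33, SE 0.62, adjusted p = 0.262). Sult2b1, the cholesterol sulfotransferase of stratified epithelia, was at 39.8 to 77.9 in controls and 7.807 to 63.13 in mutants (-1.25, SE 0.56, adjusted p = 0.239). Sult1b1 was at 12.47 to 25.76 in controls and 8.378 to 27.55 in mutants (-0.05, SE 0.43, adjusted p = 0.958 by limma). Groups overlapped for each of these sulfotransferases. Fibroblast markers, a check on other cells in the sort, also overlapped, summing to 11650 to 84710 in controls and 30650 to 217400 in mutants. Their part in the values was not tested.

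Regulators and partner enzymes were read from lists of genes around these pathways. At 4 days 1.77% of all genes rose and 1.08% fell. Of 18 regulators tested 0 rose and 1 fell. This was Ahr, the dioxin receptor, at 6592, 8142, 10260 and 10250 in controls and at 2824, 3743, 3415, 5230 and 4902 in mutants (log2 fold change -1.14, SE 0.20, adjusted p = 0.0211 by limma). All mutants lay below all controls. Nfe2l2, the oxidative stress factor, did not overlap either (28420 to 37330 and 17650 to 26840, adjusted p = 0.0695). Of 22 other oxidation and hydrolysis genes 0 rose and 3 fell. Nqo1, the quinone reductase, was at 26790, 33120, 23320 and 30560 in controls and at 18260, 14900, 12290, 11370 and 10540 in mutants (-1.10, SE 0.17, adjusted p = 0.0146 by limma). Ephx1, microsomal epoxide hydrolase, fell by 0.64 on the log2 scale (SE 0.11, adjusted p = 0.0214) and Adh7, a retinol dehydrogenase, fell by 1.34 (SE 0.25, adjusted p = 0.0242).

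The list median was -0.03 for these oxidation and hydrolysis genes, beside 0 for all genes. Cofactor genes, which supply electrons, UDP-glucuronic acid or activated sulfate, gave 0 of 14 calls, and exporters 0 of 8. The exporters Abcb1a and Abcb1b had log2 fold changes of 1.32 and 2.13 with adjusted p of 0.0936 and 0.0875. Without control B the calls of Ephx1 and Nqo1 were lost (adjusted p = 0.0725 and 0.0501 by limma), and each held without any other library. The call of Ahr was lost without control B, C or D or mutant C and that of Adh7 without control A, B or D or mutant C, with adjusted p of at most 0.0763. With the Y-linked score as a covariate all 4 calls were lost (adjusted p from 0.176 to 0.479) and each fold change stayed negative. The call of Adh7 also ended without a variance trend (0.0514), and those of Adh7 and Ephx1 in the smaller table of 3 against 3 libraries (0.11 and 0.149). Control A was above every mutant for each of the 4.

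**Figure D3:**
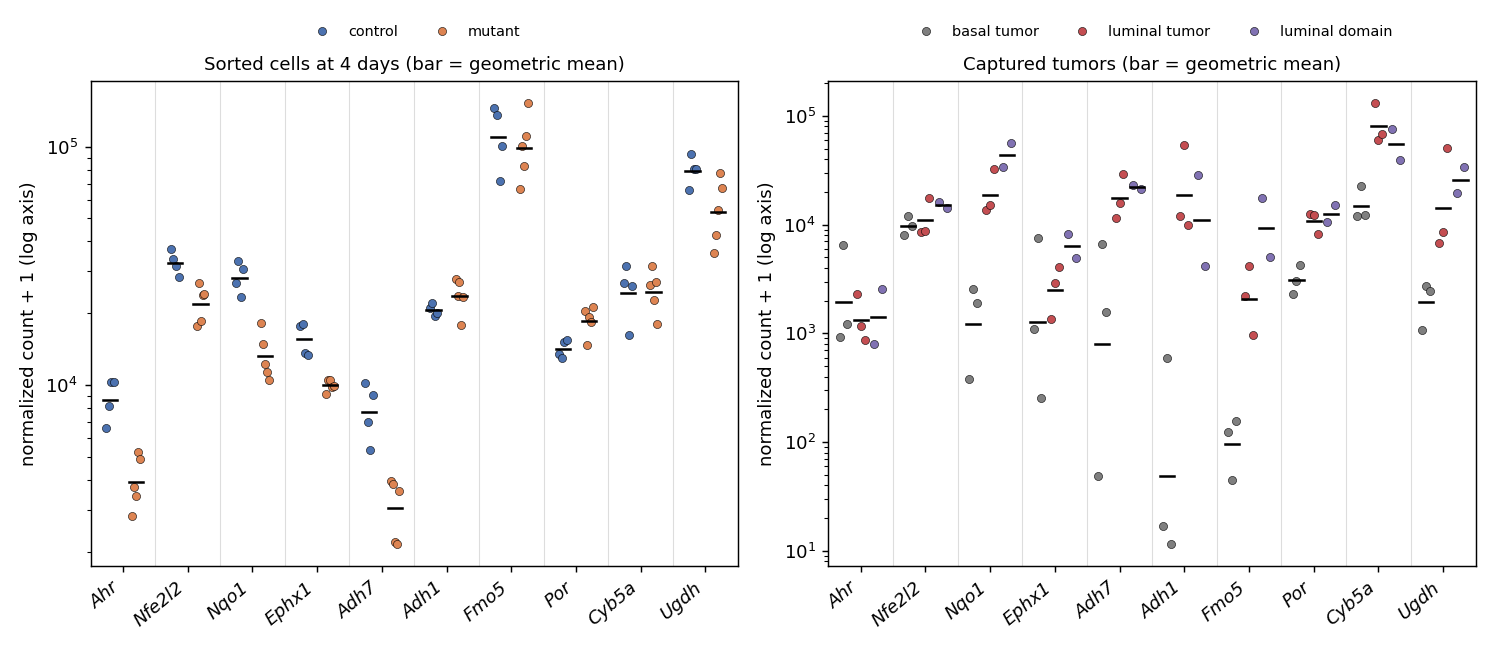
Normalized counts plus 1 (log axis) of 10 regulators and partner enzymes, 1 point per library with a bar at the geometric mean, in sorted cells at 4 days (left) and in the captured tumors (right). Ahr, Nqo1, Ephx1 and Adh7 are lower in every mutant than in every control, whereas Nqo1, Adh1, Fmo5, Por, Cyb5a and Ugdh are higher in every luminal library than in every basal tumor.

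In luminal tumors Ugt2b34 was the member that passed the test against basal tumors, and of the 5 other Ugt members tested 4 lay above all basal tumors without passing it. The fit used the 8 libraries of 1 table. Of 30 members tested 1 was called, beside 2.2% of 15357 genes. Higher calls alone made up 1.26% of all genes, and lower ones 0.938%. Of the 30, 5 were under 10 normalized counts in every library of 1 of the 2 groups, among them Cyp3a57 and Cyp4f15, and reached the level filter only through other libraries. The median log2 fold change was 1.12 for the members tested and -0.11 for all genes, and 22 of the 30 were positive. Groups did not overlap in the higher direction for 9 members and in the lower direction for 0, beside 9.98% and 11.6% of all genes. These values include the 5 members just described, among them Cyp3a57 in the 9. Over the 25 members with a library at 10 or more in both groups the median was 1.05, and groups did not overlap in the higher direction for 8 and in the lower for 0, beside a median of -0.09 and shares of 9.93% and 9.97% for such genes.

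Ugt2b34 was at 5.143, 63.51 and 4.629 normalized counts in basal tumors and at 5284, 4893 and 828.7 in luminal tumors. Every luminal tumor lay far above the highest basal tumor, with a log2 fold change of 7.73 (SE 1.11, adjusted p = 0.0199 by limma). The call held in the 12 other settings tried and ended without basal tumor A, luminal tumor A or luminal tumor B, where adjusted p was 0.0844, 0.0972 and 0.0993. Without luminal tumor A or luminal tumor B the whole table gave 3 calls, and without basal tumor A 14, in place of 338. In the sorted cells the same gene was at 1636 to 10230 normalized counts, in another table with its own scaling. The 250 bases before its start (chr5:86906938-86907187, minus strand, printed 5′ to 3′ along the gene) are shown as the promoter of the gene called in both tumor comparisons, again without letters of the motifs searched:
Ugt2b34: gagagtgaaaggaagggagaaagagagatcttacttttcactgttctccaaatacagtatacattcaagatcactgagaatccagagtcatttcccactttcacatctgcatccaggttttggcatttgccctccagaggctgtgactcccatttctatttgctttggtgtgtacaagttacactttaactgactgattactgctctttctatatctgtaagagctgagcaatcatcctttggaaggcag

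The Ugt1a locus as a whole summed to 691, 6753 and 3614 in basal tumors and to 28995, 17124 and 21642 in luminal tumors, without overlap. Ugt1a6a was at 37.26, 3049 and 1450 in basal tumors and at 17350, 4355 and 8127 in luminal tumors (log2 fold change 3.94, SE 1.36, adjusted p = 0.171 by limma). Ugt1a6b was at 17.03, 2675 and 0 against 3687, 5587 and 3110 (6.78, SE 2.21, adjusted p = 0.151). Ugt1a1 was at 582, 12.07 and 1199 against 4973, 6004 and 1908 (4.20, SE 1.46, adjusted p = 0.174). Ugt1a8 was at 40.88, 31.58 and 0 against 353.3, 345 and 777.7 (5.36, SE 1.63, adjusted p = 0.129). None of these was called. Basal tumors differed widely among themselves, and in basal tumor A Ugt1a1 made up 84.3% of the locus sum. When a library was left out Ugt1a6b gave 4.19 to 9.88 with adjusted p from 0.00959 to 0.349, and it was called in 1 of 6 fits, the one without basal tumor B, the highest of the 3 for this gene. Ugt1a7c overlapped between groups through luminal tumor B (832.4) and gave 3.41 (SE 1.49).

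**Figure D4:**
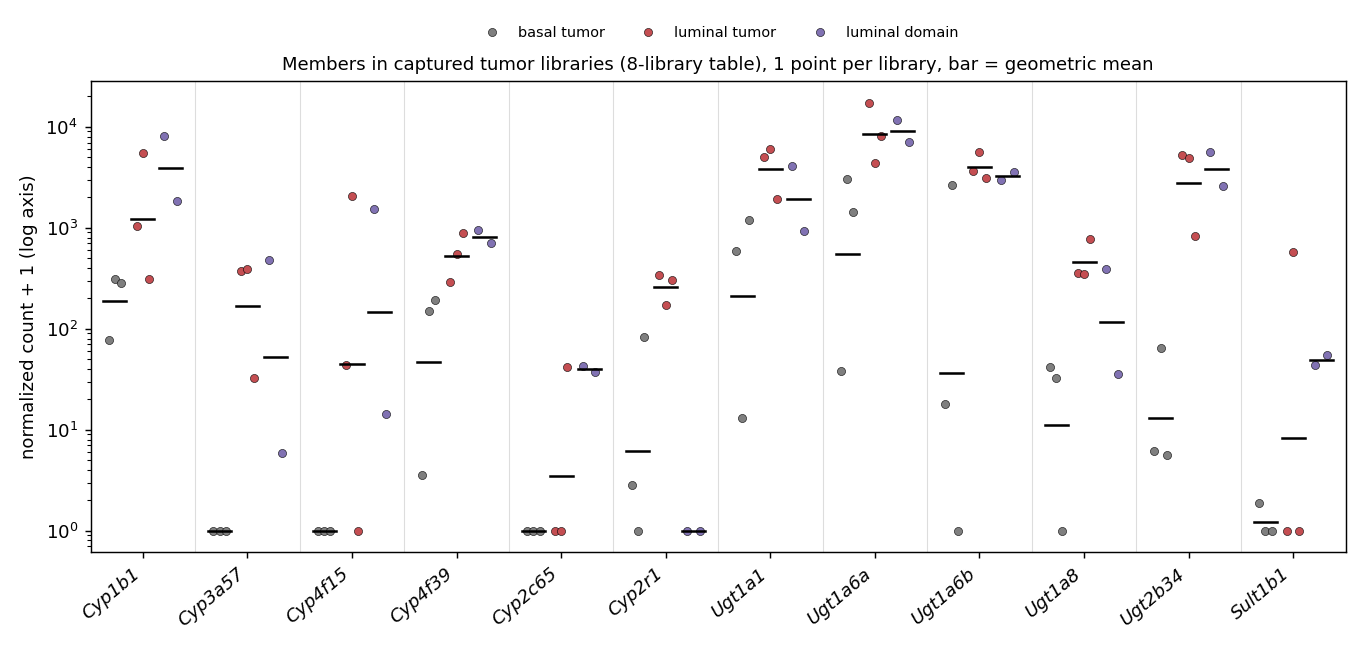
Normalized counts plus 1 (log axis) of 12 members in 3 basal tumors, 3 luminal tumors and 2 luminal domains of the same table, 1 point per library with a bar at the geometric mean. Ugt2b34 is at most 63.51 in basal tumors and at least 828.7 in luminal libraries, Cyp3a57 and Cyp4f15 are listed at 0 in every basal tumor, and Cyp2r1 is listed at 0 in both luminal domains.

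Among P450 genes Cyp3a57 was listed at 0 in all 3 basal tumors and at 373.9, 389.8 and 31.48 in luminal tumors. It reached the level filter only through the luminal libraries and was not called, and no fold change or p is given against a group at 0. The luminal domains of this table held 476.3 and 4.851. Cyp4f15 was likewise listed at 0 in basal tumors and at 42.49, 2066 and 0 in luminal tumors, which overlap. Cyp2r1 was at 1.825, 0 and 81.03 in basal tumors and at 338.8, 171 and 301.4 in luminal tumors (log2 fold change 5.41, SE 1.69, adjusted p = 0.137). Cyp4f39, an epidermal fatty acid hydroxylase, was at 2.534, 147.6 and 191.1 against 289.4, 553.5 and 886.1 (3.49, SE 1.43, adjusted p = 0.234). Cyp1b1 was at 76.5, 309.7 and 283.9 against 1047, 5461 and 312.2 (2.68, SE 1.05, adjusted p = 0.218), with luminal tumor C at the level of the highest basal tumor.

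Other members with high levels showed no difference beyond their spread. Cyp2f2 was at 7.793, 2398 and 4927 in basal tumors and at 6792, 13.93 and 3.861 in luminal tumors, again with few libraries holding most of it. Cyp2s1 gave -0.59 (SE 0.76), Cyp2j6 0.98 (SE 0.73), Cyp4f13 1.15 (SE 0.69), Cyp4f16 0.37 (SE 0.75) and Cyp3a13 -1.65 (SE 1.91). Cyp4b1 was at 46.97, 176 and 0 against 0, 0 and 1.844, reached the level filter with every luminal tumor under 10 normalized counts, and was not called. Cyp1a1 reached 68.08 in luminal tumor B and at most 15.76 in the others of both groups. Sult2b1 was at 577.2, 331.2 and 3284 in basal tumors and at 231.7, 1061 and 208.8 in luminal tumors (-1.20, SE 0.98), and Sult5a1 gave 0.87 (SE 1.16).

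Markers of other cell types also differed between these libraries. The 6 fibroblast markers summed to 44450 to 66570 in basal tumors and 212 to 17130 in luminal tumors, and the 7 leukocyte markers to 25590 to 134100 and 647.4 to 9646. Basal urothelial markers summed to 344500 to 776000 and 14910 to 293100, and luminal ones to 4305 to 20090 and 149100 to 876200. None of these ranges overlapped, and their part in the members' values was not tested.

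Among partner enzymes of the members, Por, Cyb5a and 4 other oxidation genes rose in luminal tumors. Of 14 cofactor genes 2 rose and 0 fell, with a list median of 0.58. Por, the reductase that passes electrons to microsomal P450s, was at 2319, 3057 and 4299 in basal tumors and at 12640, 12300 and 8118 in luminal tumors (log2 fold change 1.79, SE 0.34, adjusted p = 0.0364 by limma). Cyb5a, cytochrome b5, was at 11970, 22800 and 12240 against 130500, 59450 and 68220 (2.44, SE 0.43, adjusted p = 0.034). Ugdh, which makes UDP-glucuronic acid, was at 1066, 2749 and 2476 against 6826, 8468 and 50240 without passing the test (2.88, SE 0.72, adjusted p = 0.0766). Groups did not overlap for any of the 3.

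Of 20 other oxidation and hydrolysis genes 4 rose and 0 fell, with a list median of 1.64. Nqo1 was at 379.8, 2541 and 1894 in basal tumors and at 13780, 15050 and 32370 in luminal tumors (3.95, SE 0.67, adjusted p = 0.0303 by limma). Adh1, an alcohol and retinol dehydrogenase, was at 16.01, 596.7 and 10.57 against 11950, 54150 and 9950 (8.57, SE 1.42, adjusted p = 0.0292). The flavin monooxygenase Fmo5 (4.44, SE 0.74, adjusted p = 0.0292) and the carbonyl reductase Cbr1 (2.2, SE 0.38, adjusted p = 0.0304) were the others. None of these enzyme calls held without basal tumor A, basal tumor C, luminal tumor A or luminal tumor B, and that of Por also ended without basal tumor B, with adjusted p from 0.0501 to 0.133 and the direction kept. All 6 also ended without a level filter (0.0547 to 0.0647), without a variance trend (0.0651 to 0.128) and with the Y-linked score as a covariate (0.0538 to 0.121). In the 6 tumors alone those of Cbr1, Fmo5 and Por ended (0.0508 to 0.0581), and with quantile normalization that of Por (0.054). Of 15 regulators Pparg rose (80.31 and 6476 on average, 6.74, SE 0.80, adjusted p = 0.0135; 0.0879 without luminal tumor A and 0.0814 without luminal tumor B) and 0 fell, and its table value does not separate the transgene from the endogenous gene. Ahr gave -0.55 (SE 0.78).

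Luminal domains of mixed lesions were compared with the same 3 basal tumors in a table of 6 libraries. Of 28 members tested 4 were called, all higher in the domains, beside 2.53% of 14921 genes. The comparison shares its basal tumors with the one above, so that it is not independent of it. Higher calls alone made up 1.7% of all genes, and lower ones 0.824%. Of the 4, Cyp2c65 and Sult1b1 reached the level filter only through the domains, with every basal tumor under 10 normalized counts, so that their difference was fixed by the filter. Over the 25 members with a library at 10 or more in both groups 2 were called, Ugt2b34 and Cyp1b1, beside 2.17% of such genes. The median log2 fold change was 1.51 for the 28 members tested and 0.01 for all genes. Groups did not overlap in the higher direction for 10 members and in the lower for 0, beside 14% and 12.8% of all genes. Of the 10, Cyp2c65, Sult1b1 and Cyp4f15 reached the filter only through the domains. Over the 25 members with both groups the median was 1.04, and groups did not overlap in the higher direction for 7 and in the lower for 0, beside a median of 0.01 and shares of 13.6% and 12.2% for such genes.

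Ugt2b34 was at 5.413, 65.54 and 4.817 in basal tumors and at 6022, 2835 and 7727 in luminal domains (log2 fold change 8.55, SE 1.07, adjusted p = 0.0219 by limma). Cyp1b1 was at 80.72, 320.4 and 296.3 against 8704, 2009 and 3597 (4.33, SE 0.73, adjusted p = 0.0316), so that every domain was above every basal tumor. Cyp2c65, a gastrointestinal arachidonate oxidase, was listed at 0 in the basal tumors and at 44.92, 39.19 and 164.5 in the domains. Sult1b1, a sulfotransferase for thyroid hormone and phenols, was at 0.9144, 0 and 0 against 44.77, 58.39 and 205. No fold change or p is given for the last 2, whose basal values are at or under 1 normalized count. Without a level filter neither was called, while Ugt2b34 and Cyp1b1 were (adjusted p = 0.0263 and 0.0471 by limma). The call of Cyp1b1 ended when the variance was fitted without a trend on level (adjusted p = 0.0889), and both calls ended with the Y-linked score as a covariate (3.53 with 0.416 for Cyp1b1, 8.62 with 0.33 for Ugt2b34). In this table the score was 10.34 to 10.89 in basal tumors and 9.95 to 10.28 in domains, without overlap, so that score and group cannot be told apart and the loss of calls in that fit says little about them.

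These calls rest on few libraries. Without basal tumor A or without any 1 of the 3 domains 0 members were called, without basal tumor C 1 (Ugt2b34) and without basal tumor B 3 (Ugt2b34, Cyp1b1 and, in addition, Ugt1a6b), with directions kept. Cyp2c65 and Sult1b1 were called in none of these 6 fits. The same 6 fits gave 0 to 467 calls over all genes, in place of 377. Over these fits Ugt2b34 had an adjusted p of at most 0.119 and Cyp1b1 of at most 0.127. The promoter window of Cyp1b1 (chr17:79715062-79715311, minus strand) is shown because it holds, on the other strand and in capitals, the 5 letters GCGTG at the core of the element bound by Ahr:
Cyp1b1: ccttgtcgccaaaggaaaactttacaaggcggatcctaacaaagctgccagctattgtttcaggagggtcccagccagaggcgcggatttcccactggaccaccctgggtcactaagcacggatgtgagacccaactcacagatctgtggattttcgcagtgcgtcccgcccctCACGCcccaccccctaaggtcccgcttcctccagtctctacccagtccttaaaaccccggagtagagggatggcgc
These 5 letters occurred, on either strand, in 28.2% of the 32851 windows and in 12 of the 39 members with a window (30.8%), Cyp1a1 among them. The antioxidant element core TGACNNNGC occurred in 10.2% of the windows and in 1 member, Cyp4f18.

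Other members lay higher in all domains than in all basal tumors without being called. Cyp4f15 was listed at 0 in basal tumors and at 1175, 10.38 and 111.3 in domains, through which alone it reached the filter. Cyp4f39 was at 2.667, 152.4 and 198.9 against 1009, 757.7 and 370.7 (log2 fold change 3.77, SE 1.53, adjusted p = 0.218). Cyp2j6 was at 212.4, 1730 and 1110 against 1760, 3078 and 3472 (1.84, SE 0.75, adjusted p = 0.219). Ugt1a6a was at 39.46, 3166 and 1518 against 12520, 7774 and 7183 (3.94, SE 1.41, adjusted p = 0.174), Ugt1a7c at 15.07, 1069 and 1053 against 3946, 4404 and 3574 (3.91, SE 1.47, adjusted p = 0.189). Groups did not overlap in any of these 5. Nor did they for Ugt1a6b, at 17.94, 2763 and 0 against 3191, 3866 and 5577 (6.78, SE 2.42, adjusted p = 0.174 by limma). Ugt1a1 overlapped, at 12.47 to 1249 in basal tumors and 1003 to 4355 in domains (3.55, SE 1.56, adjusted p = 0.25). So did Ugt1a8, at 0 to 43.07 and 37.63 to 415.6 (3.59, SE 1.74, adjusted p = 0.292). By contrast Cyp1a1 was at 0, 0 and 16.32 against 920.9, 0 and 19.21, so that its mean rested on luminal domain A. The list of cofactors gave 3 rises, Por, Cyb5a and Ugdh (1.98, 1.96 and 3.36, adjusted p = 0.0285, 0.0407 and 0.0258 by limma), and 0 falls. Oxidation and hydrolysis genes gave 5 rises of 21 tested, Adh1, Aldh1a1, Cbr1, Fmo5 and Nqo1, and 0 falls. All 8 calls ended without basal tumor A or any 1 domain (adjusted p up to 0.184), and of them Por and Fmo5 held without basal tumor C. Without a variance trend Fmo5 alone of the 8 kept its call (adjusted p of the others 0.0851 to 0.134), and without a level filter those of Adh1, Aldh1a1 and Cyb5a ended (0.0547 to 0.0757). That of Aldh1a1 also ended with pseudocount 0.5, robust eBayes, upper-quartile scaling and quantile normalization (0.0515 to 0.0535). Upper-quartile scaling ended that of Cyb5a as well (0.0545). All 8 ended with the Y-linked score, which does not overlap between these groups, as a covariate (0.32 to 0.527). Fibroblast markers summed to 45950 to 70260 in basal tumors and 5011 to 31290 in domains, without overlap, and their part was not tested.

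**Figure D5:**
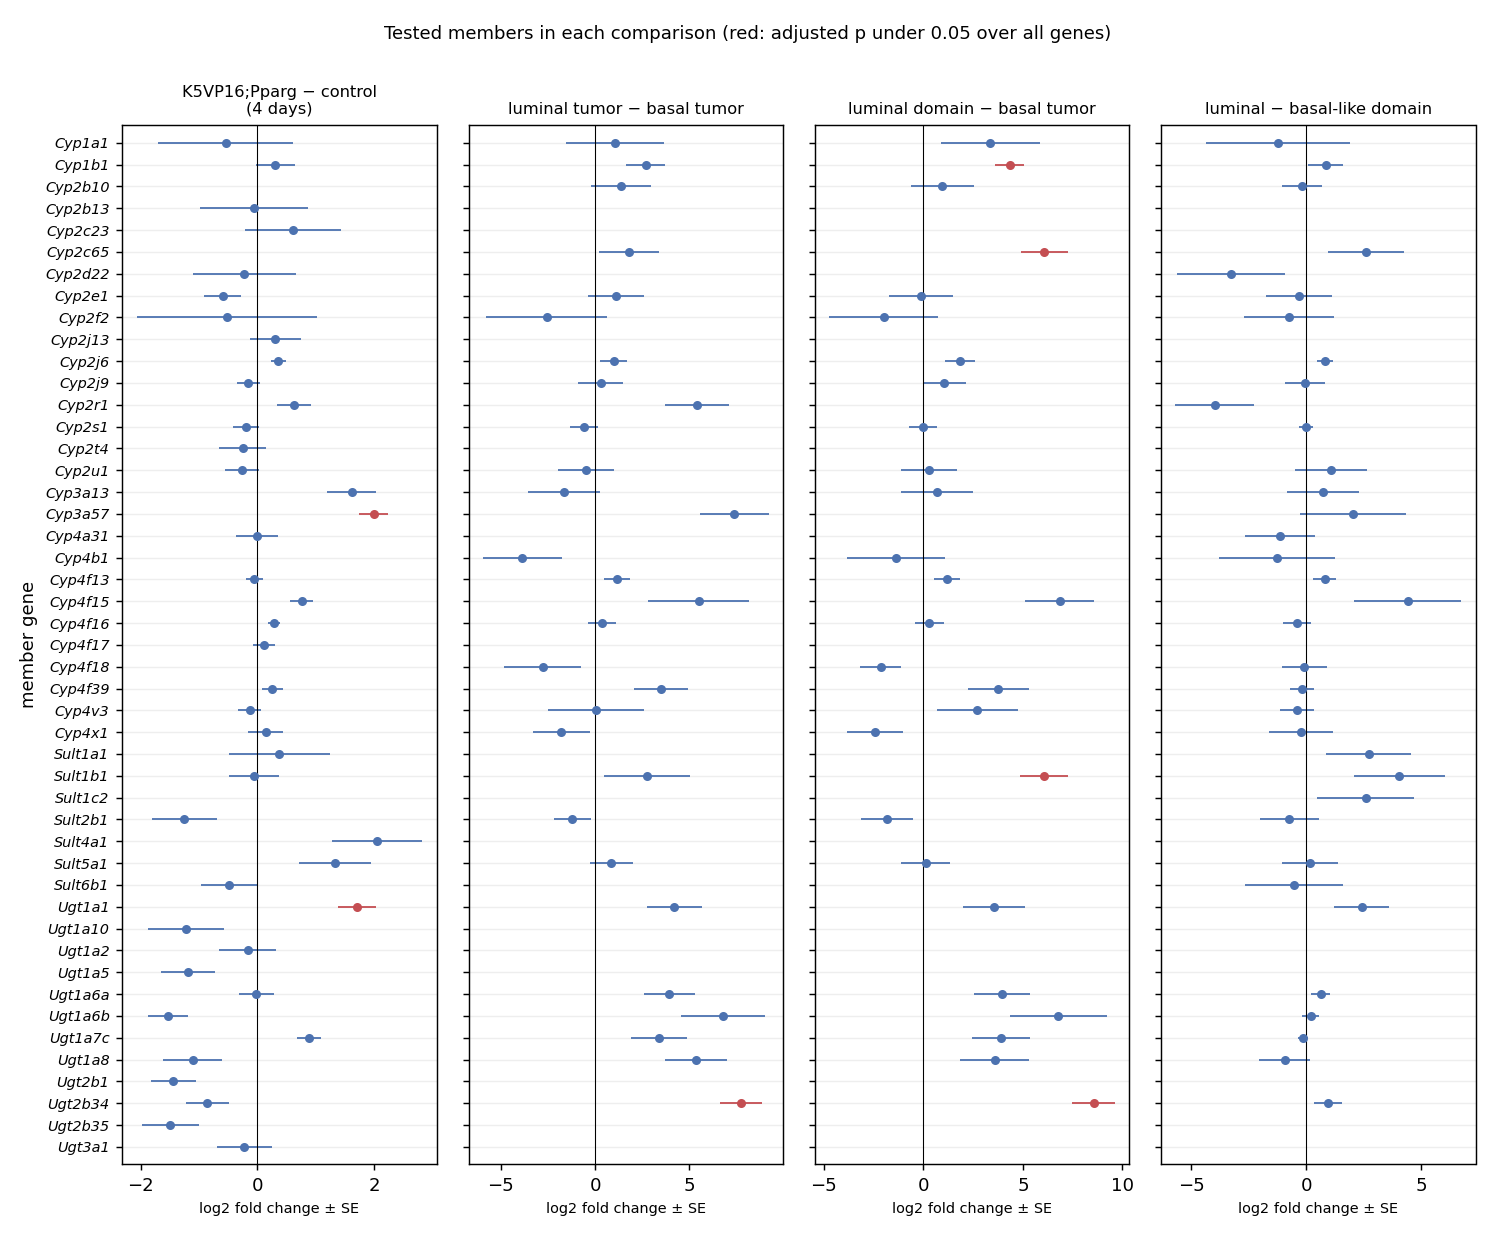
Log2 fold change with its standard error for each tested member in 4 comparisons, 1 panel each, with members called at an adjusted p under 0.05 in red and untested members left blank; fitted values of genes listed at 0 in basal tumors are not bounds on a fold. Calls number 2 at 4 days, 1 in luminal tumors, 4 in luminal domains and 0 between the domains, beside 2.85%, 2.2%, 2.53% and 0% of all genes. Of the 4, Cyp2c65 and Sult1b1 reached the level filter only through the domains. All 6 Ugt members tested against basal tumors, which but for Ugt2b34 are of the Ugt1a locus, lie to the right of zero in both panels.

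Within mixed lesions no member was called between luminal and basal-like domains. Of 35 members tested 0 were called, and 0 of 14874 genes (0%), by limma, with 2 members and 757 genes at an unadjusted p under 0.05. In the 10 other settings tried the whole table gave 0 calls, but for 20 with eBayes without a trend, none of them a member. Groups did not overlap for 1 member in the higher direction and 0 in the lower, beside 5.14% and 5.62% of all genes. That member was Cyp2c65, at 45.76, 40.44 and 169.6 in luminal and 0, 37.19 and 39.51 in basal-like domains. The titles number the domains of both kinds, but the columns carry no such number. Luminal and basal-like domains therefore could not be matched, and the counts come from a fit without pairs. Where both kinds share a lesion, such a fit can make p-values too large, so 0 calls do not show that the domains are alike.

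In basal-like domains levels varied from member to member. Ugt2b34 was at 6107, 2912 and 7929 in luminal domains and at 4620, 1060 and 4157 in basal-like domains (log2 fold change 0.93, SE 0.61, adjusted p = 0.935). Cyp1b1 was at 8839, 2067 and 3697 against 7218, 998.7 and 1648 (0.84, SE 0.77). Summed Ugt1a values were 24724, 17534 and 20776 against 25201, 11440 and 12649. Ugt1a1 was at 4403, 1027 and 3872 against 2119, 68.3 and 802.6 (2.40, adjusted p = 0.935), and Cyp4f15 at 1369, 12.26 and 131.3 against 141.4, 0.7528 and 0 (4.41, SE 2.32). Cyp3a57 was at 561.8, 5.871 and 184.4 against 174.4, 0 and 60.69, and Sult1b1 at 53.46, 70.63 and 247.7 against 0.4822, 0 and 147.2, so that basal-like domains ranged from none to well above 100 normalized counts for each. Basal-like domains and basal tumors stand in separate tables, each with its own scaling, and were not compared by a test. Pparg itself was at 2326 to 3230 in basal-like domains and 4116 to 5427 in luminal ones.

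Luminal tumors and luminal domains were compared within the table that holds both, with 3 and 2 libraries. Of 36 members 0 were called and 0 of 16640 genes (0%) by limma, with 1 member and 761 genes at an unadjusted p under 0.05. Cyp2r1 was that member, at 338.8, 171 and 301.4 in luminal tumors and listed at 0 in both domains, and it reached the level filter only through the tumors. Luminal domain C, which is not in this table, held 43.76 in the table of domains against basal tumors and 40.31 in that of mixed lesions. Cyp1b1 gave -1.68 (SE 1.17) and Ugt2b34 -0.47 (SE 1.22). With 2 domain libraries, the standard errors of the members ran to 3.53, for Cyp2f2.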

How the data were processed

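RNA was sequenced from sorted urothelial cells and laser-captured tumors. The authors mapped reads with kallisto (0.44.0 per the labels), summed them to genes with tximport and normalized each table with DESeq2. Values in the deposited tables are normalized counts, a signal scaled per table. Because their normalization factors differ by gene, whole reads could not be recovered and depth is unknown. The index build is not given in the sources used here beyond GRCm38, which the submitters' processing notes list.

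A gene was tested where the number of libraries at 10 normalized counts or more reached the size of the smaller group. Tests used limma 3.58.1 in R 4.3.3 (lmFit, trended eBayes) after log2 transformation with a pseudocount of 1, a scale on which low genes change less than in linear units. P-values were adjusted by Benjamini-Hochberg over all genes tested and called under 0.05. Comparisons stayed within a table. Columns of the authors' own fold changes and p-values were not used. The table of 1 month of BBN was not used, since its 8 columns could not be assigned to groups. The script was tested on simulated data.

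Members and lists were chosen with earlier results of these data known. Members named are those called, those with at least 100 normalized counts and a log2 fold change of at least 1 whose groups do not overlap, the 3 highest of each family, and Cyp4b1, Cyp1a1 and Cyp1b1. Promoters and coordinates are from RefSeq (GRCm38.p6), matched by symbol for 39 and 47 members. Transcripts are from GENCODE M21, compared in stretches of 31 bases, kallisto's default. No pair of libraries in a table held identical values.

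Alternatives were pseudocounts 0.5 and 5, no filter or a minimum of 50, untrended and robust eBayes, array weights, upper-quartile and quantile scaling, a Y-linked score as covariate, other tables or groupings, and each library left out.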

Additional observations from a re-analysis of the deposited data

Results flagged for a closer look

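Within the sorted groups of 4 and 5 libraries, 3 of the values of single libraries stood apart from the rest of their group by Dixon's test, among 74 groups of values examined, where chance marks about 1 in 20. Cyp2c65 was at 2.859 normalized counts in control A and at 0 in the other controls, a gap of 1 of the range, all below the level filter. Cyp2r1 was at 231.4 in mutant A and at 139.4 to 152.5 in the other mutants, a gap of 0.823 of the range on the log2 scale. Ugt1a8 was at 19.43 in mutant E and at 83.45 to 140.8 in the other mutants, a gap of 0.732.

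On the log2 scale, among the named members and the partner genes called in a comparison, 9 genes lay lower in every mutant than the mean of the controls at 4 days and higher in every luminal tumor than the mean of the basal tumors. The log2 fold change at 4 days minus that in tumors was -8.59 for Ugt2b34, -8.31 for Ugt1a6b and -6.47 for Ugt1a8. Basal tumor C is listed at 0 for Ugt1a6b and for Ugt1a8, so their sizes depend on the pseudocount. Among partner genes it was -7.10 for Pparg, -5.78 for Adh7, -5.04 for Nqo1, -3.46 for Ugdh, -2.39 for Cbr1 and -1.62 for Ephx1. The 2 contrasts come from separate tables with different kinds of sample, and the difference was not tested. Cyp2r1 lay above the mean of the basal tumors in every luminal tumor and below it in both luminal domains of the same table, with a difference of 8.02 on the scale of log2(normalized count + 1). Both domains of that table are listed at 0, so this size is set by the pseudocount and is not a fold change. Luminal domain C, in other tables, held 43.76 and 40.31, and the difference is therefore not shown for luminal domains as a group.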

How the results depend on the processing

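At 4 days 2 members were called, and 4 with pseudocount 5, a minimum of 50 normalized counts or quantile normalization, 6 with array weights, 1 without a trend or in the smaller table of 3 against 3 libraries, and 0 with the Y-linked score as a covariate. Control A alone against the mutants, chosen after seeing the data, gave 0, but with 1 library in an arm this says little, and the log2 fold changes stayed at 2.49 for Cyp3a57 and 1.57 for Ugt1a1. Leaving out 1 library gave 1 to 4. In luminal against basal tumors the count was 1, and 2 with the 5 luminal libraries pooled, where the added member, Cyp3a57, is listed at 0 in every basal tumor and reached the level filter only through luminal libraries, with a range of 0 to 2 when a library was left out. In luminal domains against basal tumors it was 4, and 2 with pseudocount 5, no filter, a minimum of 50 or robust eBayes, 0 with the Y-linked score, which does not overlap between these groups, and 0 to 3 when a library was left out. Between the domains, and between luminal tumors and luminal domains, it was 0 in every setting run. Of 2447 values of named members and called partner genes under alternatives, 185 lost and 24 gained a call and none of the called ones reversed. In 96 cases a value called in neither fit changed sign. Why these counts differ was not tested. Over all genes, the count at 4 days ran from 2 to 1054 across settings other than leaving out a library, highest with array weights, and leaving out luminal tumor A or B gave the lowest count in luminal tumors, 3. No paired analysis was possible because the columns carry no replicate numbers and the labels do not tie a column to a numbered sample. Reads per library are unknown, so no limit of detection can be given for a member listed at 0.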
